A study of Mus musculus with 2 samples.

Results

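Hspa1-high cells were the small intestinal IL-23 receptor reporter cells that carried no UMI of the CD3 chain genes Cd3e, Cd3d and Cd3g and at least 5 UMIs of the inducible HSP70 genes Hspa1a and Hspa1b together. A UMI (unique molecular identifier) marks 1 captured RNA molecule. The rule found 328 cells among 18658 CD3-negative cells and 20041 cells kept in all. They were set against the 17449 CD3-negative cells with 0 Hspa1a and Hspa1b UMIs, here called Hspa1-zero cells. The working label of the members was stressed group 3 innate lymphoid cells (ILC3s).

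The study sequenced single immune cells from the small intestine of mice that carry the Il23r-eGFP reporter allele, sorted as live eGFP-positive cells. The stimulated library came from cells given recombinant mouse IL-23 for 2 hours, and the unstimulated library is labelled as without it, though the protocol text attached to both mentions IL-23. Cells of both libraries carried the reporter allele, both came through warm EDTA and enzyme digestion steps, and the age and the number of the mice were not given in the labels. Each condition was 1 library, so no difference between libraries or between cell classes has a replicate check and no test was run. The intervals given are exact Poisson intervals for sums, carried over to ratios, and exact binomial (Clopper-Pearson) intervals for shares, and they cover counting error only.

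Heat shock genes are switched on by the transcription factor HSF1 when proteins misfold, and HSP70, HSP110 and HSP40 proteins then bind and refold the damaged chains. Warm enzymatic digestion of tissue is known to induce heat shock and immediate early genes in many cell types. ILC3s are gut lymphocytes without antigen receptors that carry the IL-7 receptor and answer IL-23 with IL-22, largely through STAT3.

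Hspa1a and Hspa1b are neighbours on the minus strand of mouse chromosome 17, at chr17:34969190-34972156 and chr17:34956436-34959238 (GRCm38, GENCODE), 9951 bases apart. Their promoters are shown with that of Hsph1, the HSP110 gene at chr5:149614287-149636376 on the minus strand, because Hsph1 was the heat shock gene outside the rule with the highest members-over-zero ratio among those seen in many cells. Each is the stretch of 250 bases before the annotated start, 5′ to 3′ on the gene's strand, from RefSeq (GRCm38.p6). Capitals mark the palindromic pair of heat shock element units, searched as GAANNTTC and TTCNNGAA, 2 motifs that each read the same on both strands.
Hspa1a, chr17:34972157-34972406, minus strand: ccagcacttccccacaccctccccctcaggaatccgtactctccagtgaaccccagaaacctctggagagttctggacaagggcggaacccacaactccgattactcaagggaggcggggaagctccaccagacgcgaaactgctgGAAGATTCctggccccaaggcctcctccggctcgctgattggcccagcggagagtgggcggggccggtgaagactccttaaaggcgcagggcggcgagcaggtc
Hspa1b, chr17:34959239-34959488, minus strand: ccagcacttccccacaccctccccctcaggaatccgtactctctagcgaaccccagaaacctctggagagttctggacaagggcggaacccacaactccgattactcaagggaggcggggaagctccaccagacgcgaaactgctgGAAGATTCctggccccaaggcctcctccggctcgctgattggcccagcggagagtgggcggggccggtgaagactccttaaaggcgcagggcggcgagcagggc
Hsph1, chr5:149636337-149636586, minus strand: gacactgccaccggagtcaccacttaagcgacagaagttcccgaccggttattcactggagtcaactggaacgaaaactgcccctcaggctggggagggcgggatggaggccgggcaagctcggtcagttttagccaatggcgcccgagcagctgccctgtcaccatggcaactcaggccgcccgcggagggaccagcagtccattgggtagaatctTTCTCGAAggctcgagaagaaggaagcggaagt
The Hspa1a and Hspa1b windows differed at 3 of 250 bases, and the match began 104 bases before the start in both. In Hsph1 it began 33 bases before the RefSeq start used, which lies inside the GENCODE span given above, as does the match. In another RefSeq window of Hsph1 the same match began 54 bases before the start. A match to either motif was present in such windows of 13 of 31 heat shock list genes with a window (41.9%), against 3932 of 27025 genes with a window (14.5%). A match is a stretch of letters and no evidence of binding. It was present in 3 of 32 immediate early genes (9.38%) and in 1 of 21 unfolded protein response genes (4.76%). Dnajb1, an HSP40 co-chaperone gene described below, and Fos had no such match in their windows.

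In the stimulated library 150 of 8583 CD3-negative cells were Hspa1-high (1.75%, interval 1.48% to 2.05%), and in the unstimulated library 178 of 10075 were (1.77%, interval 1.52% to 2.04%). The intervals overlapped almost wholly. Hspa1-high cells held a median of 14 Hspa1a plus Hspa1b UMIs and up to 185 in the stimulated library, and a median of 15 and up to 142 in the unstimulated library. Hspa1-high cells held 2853 UMIs of Hspa1a and 1020 of Hspa1b in the stimulated library (2.80 to 1) and 3617 and 1306 in the unstimulated library (2.77 to 1). The ratio was 2.36 to 1 among stimulated cells with 5 to 9 UMIs and 2.97 to 1 among those with 20 or more, and 2.08 and 2.87 to 1 among unstimulated ones. The genes are near-identical copies, and how the counting treated reads that match both was not checked, so their ratio is uncertain. The counts formed a range with no gap at the threshold. In the stimulated library 16 cells had 5 UMIs and 14 had 6, just inside it, and 22 cells had 3 and 15 had 4, just outside it. In the unstimulated library 26 cells had 5 UMIs and 9 had 6, against 29 with 3 and 26 with 4. Cells with a CD3 chain UMI reached the same number of Hspa1a plus Hspa1b UMIs as well, 17 of 668 in the stimulated library (2.54%, interval 1.49% to 4.04%) and 25 of 715 in the unstimulated library (3.50%, interval 2.28% to 5.12%). Hspa1 transcripts at this level were therefore not limited to CD3-negative cells.

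**Figure D1:**
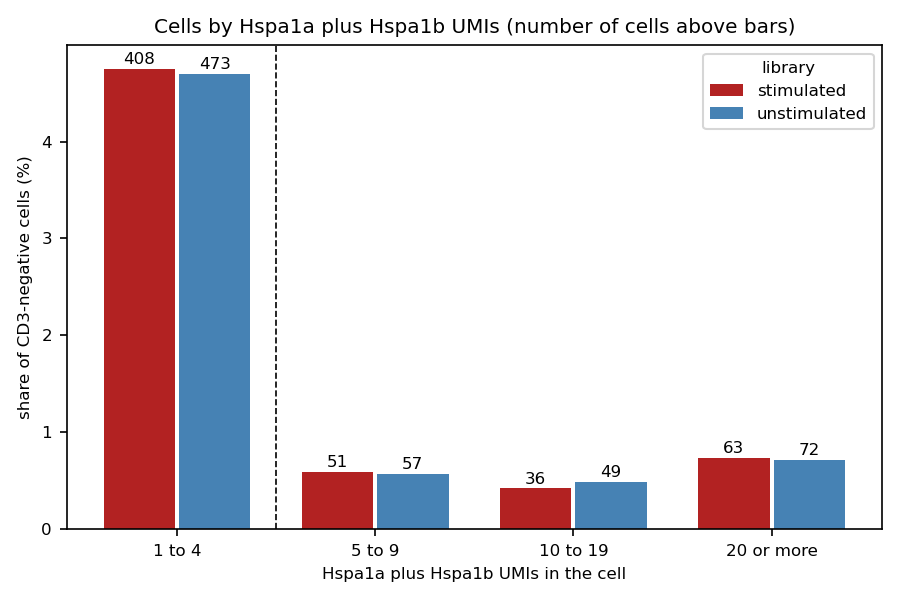
Share of CD3-negative cells (vertical axis, %) by Hspa1a plus Hspa1b UMIs per cell (horizontal axis), in the stimulated and the unstimulated library, with the number of cells above each bar and cells with 0 UMIs not drawn. In the stimulated library 408 cells had 1 to 4 UMIs, 51 had 5 to 9, 36 had 10 to 19 and 63 had 20 or more, and in the unstimulated library the numbers were 473, 57, 49 and 72. The dashed line is the threshold of 5 UMIs.

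Hspa1-high cells were sequenced about as deeply as Hspa1-zero cells. Their median was 5790 UMIs and 2003 genes per cell in the stimulated library, against 6025 UMIs and 2040 genes in Hspa1-zero cells, and 4941 UMIs and 1823 genes in the unstimulated library, against 4855.5 UMIs and 1845 genes. Mitochondrial genes gave 3.03% of UMIs in stimulated and 2.43% in unstimulated Hspa1-high cells, against 3.24% and 2.63% in Hspa1-zero cells. No mitochondrially encoded gene of 13 was 1.5-fold apart in both libraries. The deposited libraries held 62291905 UMIs in 10440 barcodes (stimulated) and 58443284 UMIs in 11096 barcodes (unstimulated). They shared 29 barcodes, none of them an Hspa1-high cell.

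The ILC3 part of the label was checked first. Il7r, the IL-7 receptor chain, was seen in 88.0% of Hspa1-high and 58.2% of Hspa1-zero cells of the stimulated library, and in 86.5% and 60.3% of those of the unstimulated library. Tnfsf11, which encodes RANKL and marks the lymphoid tissue inducer kind of ILC3, was seen in 60.7% of Hspa1-high and 28.0% of Hspa1-zero stimulated cells, and in 68.0% and 36.1% of unstimulated ones. With every cell thinned to 2000 UMIs the order held, with Il7r in 70.3% and 33.0% of stimulated and 69.3% and 39.0% of unstimulated cells, and Tnfsf11 in 41.4% and 15.2%, and 46.6% and 22.4%. The thinning left out 5 stimulated and 2 unstimulated Hspa1-high cells and 290 and 377 Hspa1-zero cells as too shallow. As a background, cells with at least 10 UMIs of B and plasma cell genes and 0 Hspa1 UMIs showed Il7r in 1 of 9 stimulated and 2 of 18 unstimulated cells and Tnfsf11 in 0 of 9 (exact upper limit 33.6%) and 2 of 18, at median depths of 7210 and 7850 UMIs. Il7r does not set ILC3s apart from T cells, since CD3-positive cells showed it in 81.6% of stimulated and 85.3% of unstimulated cells, and Tnfsf11 in 25.7% and 33.6%. Il7r and Tnfsf11 were seen in most Hspa1-high cells, and more often than in Hspa1-zero cells of both libraries. Other ILC3 genes did not all follow, as given below, where 9 of 21 list genes were higher in both libraries, beside 11.1% of all genes measured.

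A few Hspa1-high cells were of other kinds, T cells aside. Cells with at least 10 UMIs of stromal and endothelial, B and plasma, or macrophage and dendritic cell genes, here called other-lineage cells by a rule set after their values were seen, were 3 of the 150 stimulated and 4 of the 178 unstimulated Hspa1-high cells. One stimulated cell of 47655 UMIs held 528 UMIs of Selp, an endothelial adhesion molecule, and 0 of Il7r, and gave 4.36% of all UMIs of the class. One unstimulated cell of 27335 UMIs held 11871 UMIs of the immunoglobulin light chain Igkc. Over the B and plasma list, 6 of 12 genes had a UMI in stimulated Hspa1-high cells, and Ms4a1, Pax5 and Fcmr were at 0 in Hspa1-high cells of both libraries. That list summed to 33.1 CPM (UMIs of a gene scaled to a total of 1000000 per class, Hspa1a and Hspa1b left out of the total) in stimulated and 12357 CPM in unstimulated Hspa1-high cells, against 389 and 1141 CPM in Hspa1-zero cells. The macrophage and dendritic cell list summed to 444 and 289 CPM, against 204 and 224 CPM, with Lyz2, C1qa, Csf1r and Adgre1 at 0 in Hspa1-high cells. The stromal and endothelial list summed to 192 and 125 CPM, against 85.1 and 76.4 CPM, with Col1a1, Dcn and Pdgfra at 0. T cell genes summed to 741 and 735 CPM, against 393 and 518 CPM, all from genes other than the CD3 chains that the rule set to 0, with Cd5, Cd6, Cd8a and Themis also at 0. The other-lineage rule did not use the T cell list. At least 10 UMIs of that list were held by 31 stimulated (20.7%) and 25 unstimulated (14.0%) Hspa1-high cells, against 4.30% and 5.06% of Hspa1-zero cells. Of the 5 T cell list genes measured 2 were higher in both libraries, beside 11.1% of all genes measured. Without the other-lineage cells 4 of 5 were, beside 10.1% of all genes measured. Lck, a kinase of the T cell receptor pathway, had 45.9 and 9.79 CPM in stimulated and 52.3 and 11.2 CPM in unstimulated cells, and the adaptor gene Lat had 17.4 and 8.03 CPM, and 13.5 and 7.82 CPM. The part of T cells whose CD3 chains were missed in these values was not tested. Ratios that move by more than 1.5 times without the other-lineage cells are given with and without them.

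Hspa1-high cells differed from Hspa1-zero cells of the same library across several gene groups, in both libraries. Hsph1, Dnajb1, the immediate early genes Fos and Fosb, the NF-κB inhibitor genes Nfkbid and Tnfaip3, and the cytokine genes Tnf, Csf2 and Tnfsf11 were higher. Trib3, Nupr1 and genes of amino acid supply such as Psph were lower. Since Hspa1a and Hspa1b were read from the same cells, these comparisons describe the classes and test nothing. A gene counted as measured at 10 CPM or more in either class and 20 UMIs over both, and as higher or lower past a 1.5-fold ratio. Of 7437 genes measured in the stimulated library 1486 were higher (20.0%) and 1097 lower (14.8%), and of 7420 in the unstimulated library 1222 were higher (16.5%) and 1454 lower (19.6%). Of 7046 measured in both, 781 were higher in both (11.1%), 626 lower in both (8.88%) and 30 opposite (0.426%). The median log2 ratio was -0.02 in the stimulated and -0.12 in the unstimulated library, and centring on it gave 1513 higher and 1078 lower genes in the unstimulated library in place of 1222 and 1454. Hspa1-high cells held 1092792 stimulated and 1038285 unstimulated UMIs, so a gene near 10 CPM rests on few UMIs. Counting error alone can take such a gene past 1.5-fold. At 50 CPM or more, 14.5% of 3217 genes were higher and 11.8% lower in the stimulated library. In the unstimulated library 12.9% of 3316 were higher and 15.0% lower at that minimum.

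**Figure D2:**
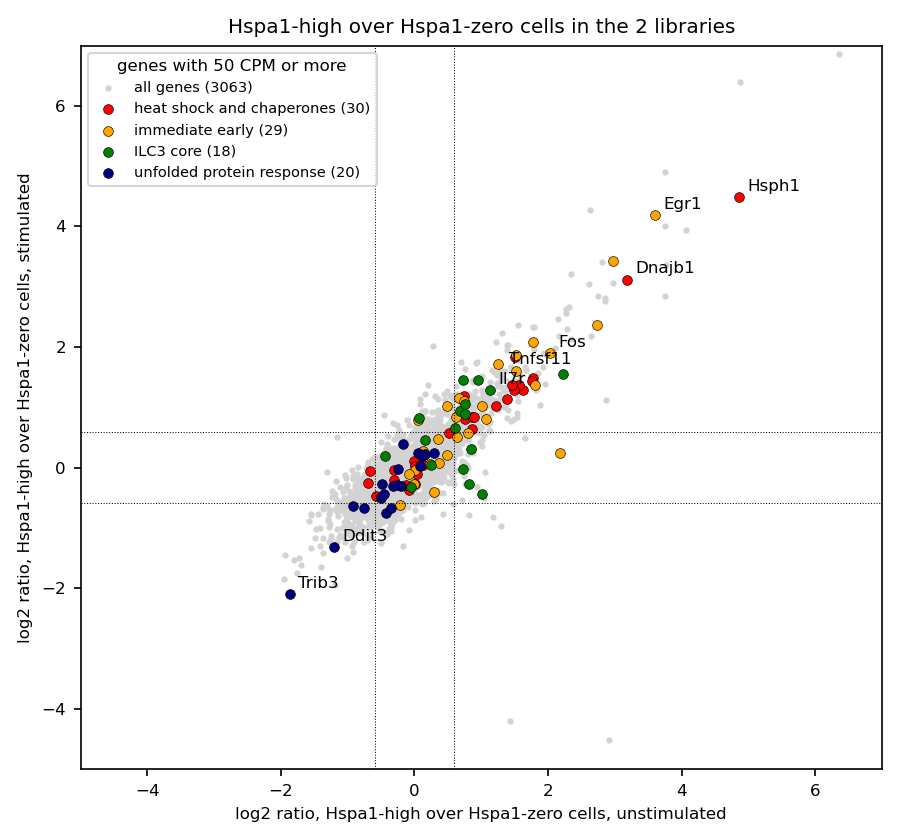
Log2 ratio of summed CPM, Hspa1-high over Hspa1-zero cells, in the stimulated library (vertical axis) against the unstimulated library (horizontal axis), 1 point per gene of 3063 with 50 CPM or more, with heat shock, immediate early, ILC3 and unfolded protein response genes in colour, dotted lines at 1.5-fold and 13 genes beyond the axes. Hsph1 lies at 4.48 and 4.86 in the upper right and Trib3 at -2.10 and -1.86 in the lower left.

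Chaperone genes were higher in part of the list only. Hsph1 had 262 CPM in Hspa1-high and 11.7 CPM in Hspa1-zero stimulated cells, a log2 ratio of 4.48 (interval 4.27 to 4.68). In the unstimulated library it had 390.0 CPM and 13.4 CPM, a log2 ratio of 4.86 (4.68 to 5.04). It was seen in 60.7% of Hspa1-high and 6.65% of Hspa1-zero stimulated cells, and in 66.9% and 5.81% of unstimulated ones, or 36.6% and 2.28%, and 42.6% and 2.44%, after thinning. The B and plasma background cells with 0 Hspa1 UMIs showed it in 1 of 9 and 3 of 18 (exact upper limits 48.2% and 41.4%), too few cells to say whether the share in Hspa1-zero cells was above background. Dnajb1, which delivers clients to HSP70, had 456 and 52.6 CPM in stimulated cells (log2 ratio 3.12, 2.98 to 3.26), and 488 and 54.0 CPM in unstimulated cells (3.18, 3.04 to 3.31). Hspa8, the constitutive HSP70, was higher by less, at 2247 and 925 CPM (1.28) in stimulated and 2651 and 859.6 CPM (1.62) in unstimulated cells. Hsp90aa1, the inducible HSP90, had 2818 and 1391 CPM (1.02), and 2956 and 1266 CPM (1.22). Without cells holding a T cell receptor constant UMI or 3 UMIs of other lineages, which kept 36 stimulated and 33 unstimulated Hspa1-high cells, the ratios were larger, at 5.19 and 5.77 for Hsph1 and 3.86 and 4.05 for Dnajb1.

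Over the heat shock list 17 of 34 measured genes (of 38 listed) were higher in both libraries and none was lower in both, beside 11.1% and 8.88% of all genes measured. The list's median log2 ratio was 0.61 in the stimulated and 0.64 in the unstimulated library. Without the other-lineage cells 16 of 33 were higher in both, Hspb1 not among them, beside 10.1% of all genes measured. The higher genes also included Hspa4l, an HSP110 relative, at log2 ratios of 1.83 and 1.51, Hspe1, the mitochondrial HSP10, at 1.37 and 1.56, and Bag3, a partner of HSP70 in autophagy, at 1.44 and 1.75. Ubb, a polyubiquitin gene that supplies ubiquitin under stress, was higher too, at 3691 and 1506 CPM in stimulated cells (1.29) and 3170.2 and 1126 CPM in unstimulated cells (1.49). Not every gene of the list was higher. Hspd1, the mitochondrial HSP60 that works with HSP10, stood at 0.04 and 0.12, Stip1, the link between HSP70 and HSP90, at 0.03 and 0.00, and Hsf1 itself at -0.17 and -0.23. Of 26 proteasome genes 0 were higher and 4 lower in both. No undigested cells were analysed here, so what the digestion added to these levels cannot be told apart.

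The Hsph1 and Dnajb1 levels climbed with the Hspa1 count beyond the threshold of 5. Without the other-lineage cells, Hsph1 stood at 11.7, 46.8, 183, 174 and 414 CPM in stimulated cells with 0, 1 to 4, 5 to 9, 10 to 19 and 20 or more Hspa1a plus Hspa1b UMIs. In unstimulated cells it stood at 13.4, 61.7, 236, 285 and 614 CPM. Dnajb1 went over the same classes from 52.7 to 734 CPM in stimulated and from 53.9 to 661 CPM in unstimulated cells. Fos did not keep climbing, with 1317, 1088 and 1508 CPM in the 3 upper stimulated classes and 1657, 1690 and 1099 CPM in the unstimulated ones. Il7r stood at 672, 641 and 741 CPM in the 3 upper stimulated classes, against 267 CPM with 0 UMIs, and at 671, 901 and 877 CPM in the unstimulated ones, against 350.5 CPM. Ddit3 stood at 426 CPM stimulated and 392 CPM unstimulated in the class of 1 to 4 UMIs, and at 150 and 206 CPM in the class of 5 to 9.

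**Figure D3:**
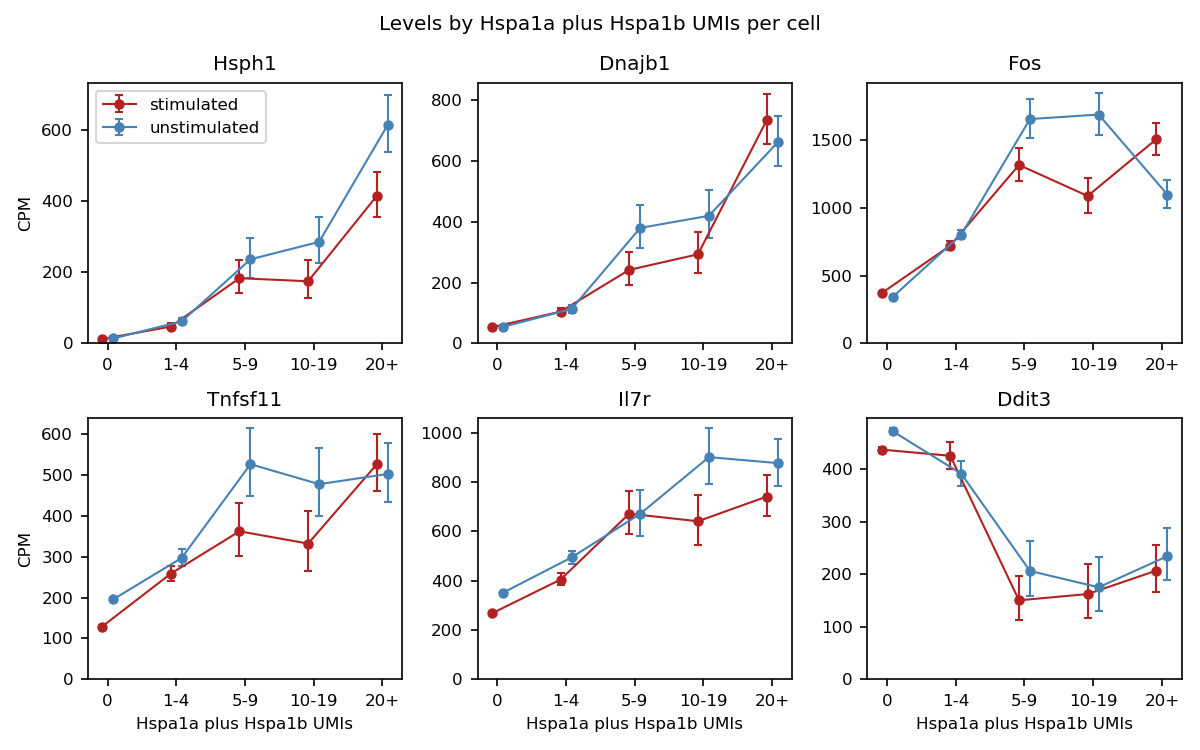
Level (vertical axes, CPM with exact Poisson intervals) of Hsph1, Dnajb1, Fos, Tnfsf11, Il7r and Ddit3 in CD3-negative cells grouped by Hspa1a plus Hspa1b UMIs per cell (horizontal axes), in the stimulated and the unstimulated library, without other-lineage cells. Hsph1 reaches 414 (stimulated) and 614 CPM (unstimulated) in the class of 20 or more, while Ddit3 stands at 207 and 234 CPM there, against 438 and 473 CPM with 0 UMIs.

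Many of the immediate early and NF-κB genes were higher as well. Fos, an AP-1 subunit, had 1381 CPM in Hspa1-high and 369 CPM in Hspa1-zero stimulated cells (log2 ratio 1.90), and 1389 and 340.2 CPM in unstimulated cells (2.03). Egr1, an early zinc finger factor, had 306 and 16.8 CPM in stimulated cells (4.19, or 3.69 without the other-lineage cells), and 219 and 18.0 CPM in unstimulated cells (3.60, or 3.41). Zfp36, which destroys cytokine messages, stood at log2 ratios of 2.37 and 2.74, Fosb at 2.08 and 1.77 and the orphan receptor gene Nr4a1 at 1.88 and 1.51. Of 35 immediate early genes measured in both libraries 17 were higher in both and none lower in both, beside 11.1% and 8.88% of all genes measured, with medians of 1.01 and 0.66. The rest included Junb, at 0.06 and 0.23, and Atf3, at 0.27 and 0.13. Nfkbid had 309 and 37.5 CPM in stimulated and 309 and 50.3 CPM in unstimulated cells (3.05 and 2.62). Nfkbia, which holds NF-κB in the cytoplasm, had 3829 and 1415 CPM (1.44), and 3740.2 and 1282 CPM (1.55). Of 18 NF-κB genes 10 were higher in both, with Tnfaip3, a brake on the pathway, at 2.03 and 1.40 and the subunit gene Rel at 1.34 and 1.30.

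Of 23 measured genes of the unfolded protein response of the endoplasmic reticulum 0 were higher and 6 lower in both libraries, beside 11.1% and 8.88% of all genes measured, with median log2 ratios of -0.30 and -0.36. Hspa5, the HSP70 of the endoplasmic reticulum, had 2795 and 2389 CPM in stimulated and 2883 and 2579 CPM in unstimulated cells (0.23 and 0.16). Ddit3, the stress factor CHOP, was lower, at 175 and 438 CPM (-1.32) in stimulated and 203 and 471 CPM (-1.21) in unstimulated cells. Ddit3 was counted under a single symbol that joins a pair of overlapping gene records. Atf4, the factor that drives amino acid supply genes, had 599 and 955 CPM (-0.67), and 556 and 942 CPM (-0.76). Among the 12 lowest genes by the ranking rule stood Trib3, a pseudokinase that restrains ATF4 signalling, at 12.9 and 57.2 CPM (-2.10) and 20.3 and 75.6 CPM (-1.86). Nupr1, a stress-induced chromatin protein, had 129 and 469 CPM (-1.85), and 124 and 484 CPM (-1.96). Psph, the last enzyme of serine synthesis, stood at -1.74 and -1.76, the leucine carrier gene Slc7a5 at -1.50 and -1.72, the mitochondrial folate enzyme gene Mthfd2 at -1.44 and -1.93, and the glycyl and leucyl transfer RNA synthetase genes Gars and Lars at -1.33 and -1.55 and at -1.41 and -1.37. Over a list of ATF4-linked genes drawn up after these values were seen, 22 of 26 measured were lower in both libraries, which is a description only.

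The 12 highest genes by the same rule were mostly carried by the few other-lineage cells. Selp came from 1 Hspa1-high cell in each library, Plvap, an endothelial diaphragm protein, from 3 stimulated and 1 unstimulated cells, and the small heat shock gene Hspb1 from 3 and 2 cells. The exception was Ccnb1ip1, a ubiquitin ligase gene of meiosis, with 433 CPM in Hspa1-high and 3.72 CPM in Hspa1-zero stimulated cells (6.86, 6.62 to 7.11), and 262 and 3.21 CPM in unstimulated cells (6.35, 6.06 to 6.64). It was seen in 95 stimulated and 89 unstimulated Hspa1-high cells, with no cell above 5.93% of its UMIs. Without the other-lineage cells it ranked first, ahead of Hsph1, Cxcl1, 4930532G15Rik, Rmrp, Egr1 and Dnajb1. Cxcl1, a neutrophil chemokine, had 99.2 and 3.31 CPM in stimulated cells (4.91), and 112 and 8.40 CPM in unstimulated cells (3.74, or 4.36 without the other-lineage cells), from 13 and 24 Hspa1-high cells. Rmrp, the RNA of a mitochondrial and ribosomal RNA processing enzyme, stood at 4.01 and 3.76, and the unnamed gene 4930532G15Rik at 3.95 and 4.06.

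Part of the ILC3 identity genes were higher in Hspa1-high cells. Of 21 ILC3 genes 9 were higher in both libraries and 0 lower in both, beside 11.1% and 8.88% of all genes measured, and 12 did not pass 1.5-fold in both. Among those 12, Ahr was lower by 1.5-fold or more in the stimulated library. Il7r had 647 CPM in Hspa1-high and 266 CPM in Hspa1-zero stimulated cells (log2 ratio 1.28), and 764 and 348 CPM in unstimulated cells (1.13). Rora, a nuclear receptor of innate lymphoid cells, had 2545 and 1324 CPM (0.94), and 2669.9 and 1663 CPM (0.68). Il23r, the receptor on which the sort rested, stood at -0.03 in stimulated and 0.72 in unstimulated cells.

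Some cytokine and chemokine genes were higher too. Tnfsf11 had 396 and 129 CPM in stimulated cells (1.62), and 473 and 194 CPM in unstimulated cells (1.29). Csf2, the GM-CSF gene, had 142 and 17.1 CPM (3.06), and 201 and 25.8 CPM (2.97). Tnf had 143 and 23.1 CPM (2.63), and 178 and 36.9 CPM (2.27). Of 14 effector cytokine genes 6 were higher in both libraries and 0 lower in both, beside 11.1% and 8.88% of all genes measured, and the other 8 did not pass 1.5-fold in both. Among chemokines 5 of 8 were higher in both, and Cxcl3 was lower, with 79.9 and 158 CPM, and 60.0 and 147 CPM.

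Hspa1-high cells were found in every subset stratum. Without other-lineage cells, those with a UMI of Ccr6, the receptor of lymphoid tissue inducer-like ILC3s, and none of Ncr1 made up 25.2% of Hspa1-high and 16.9% of Hspa1-zero stimulated cells, and 29.3% and 15.0% of unstimulated ones. Those with a UMI of Ncr1, the NKp46 gene of the other main ILC3 kind, and none of Ccr6 made up 18.4% and 14.7%, and 14.9% and 10.1%. After thinning, Ccr6 was seen in 16.6% of Hspa1-high and 7.50% of Hspa1-zero stimulated cells, and in 17.0% and 7.97% of unstimulated ones, while Ncr1 was seen in 6.21% and 5.58%, and 6.82% and 4.36%. The B and plasma background cells with 0 Hspa1 UMIs showed Ccr6, which B cells can also carry, in 2 of 9 stimulated and 2 of 18 unstimulated cells before thinning, too few to set apart from the Hspa1-zero shares of 17.6% and 15.4%. The share of Ccr6 cells was thus higher in both libraries. That of Ncr1 cells was also higher, by a few percentage points, and the intervals of the Ncr1-only shares overlapped between the classes in each library. Without other-lineage cells, those with neither or both made up 56.5% of Hspa1-high and 68.4% of Hspa1-zero stimulated cells, and 55.7% and 74.9% of unstimulated ones. By gene list neither kind stood alone. Of 18 genes of the lymphoid tissue inducer kind 5 were higher in both libraries (Ccr6, Cd4, Tnfsf11, Ltb and Ccr7), and of 15 measured genes of the NKp46 kind 4 were (Tbx21, Ifng, Xcl1 and Cxcr3), with 0 lower in either list, beside 11.1% and 8.88% of all genes. Xcl1, a lymphocyte chemokine, had 112 and 23.0 CPM in stimulated and 91.9 and 18.9 CPM in unstimulated cells, and Tbx21, the T-bet gene, 28.5 and 8.77 CPM, and 34.8 and 9.88 CPM.

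Hsph1 was higher in each stratum. Among Ccr6-only cells it had 335 CPM in Hspa1-high and 10.8 CPM in Hspa1-zero stimulated cells, and 551 and 13.8 CPM in unstimulated ones. Among Ncr1-only cells it had 179 and 11.5 CPM, and 341 and 16.7 CPM. Tnfsf11 showed the same within strata, with 712 and 245 CPM in stimulated and 662 and 341 CPM in unstimulated Ccr6-only cells, and 153 and 65.4 CPM, and 315 and 130 CPM, in Ncr1-only cells. The difference in Tnfsf11 was therefore present among cells of like Ccr6 and Ncr1 status.

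The contrast of stimulated with unstimulated Hspa1-high cells addressed how these cells stood after IL-23. Il22, Il17f, Batf and Gadd45g were higher in the stimulated than in the unstimulated Hspa1-high cells, by smaller ratios than in Hspa1-zero cells. Il22 had 22236 CPM in stimulated and 10060.4 CPM in unstimulated Hspa1-high cells (log2 ratio 1.14), against 26892 and 5741 CPM in Hspa1-zero cells (2.23). Il17f, an IL-17 family cytokine, had 529.9 and 193 CPM (1.46), against 752 and 93.7 CPM (3.01). Batf, an AP-1 family factor of cytokine-producing lymphocytes, had 271 and 70.6 CPM (1.93, 1.57 to 2.33), against 534 and 29.0 CPM (4.20). Gadd45g, a stress kinase activator, had 1333 and 489.7 CPM (1.44), against 1121 and 109 CPM (3.37). Summed over all strata, the Hspa1-high values of Il22, Il17f and Batf stood lower than the Hspa1-zero values after IL-23 (by 1.5-fold or more for Batf only) and higher without it, and Gadd45g stood higher in both libraries (past 1.5-fold in the unstimulated one only). Without cells holding a T cell receptor constant UMI or 3 UMIs of other lineages, the Il22 ratio in Hspa1-high cells was 0.36. That value rests on 36 stimulated and 33 unstimulated Hspa1-high cells, and the matching ratio in Hspa1-zero cells is not given here.

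Over the STAT3-linked list 10 of 21 measured genes were higher in stimulated than in unstimulated Hspa1-high cells and 0 were lower, beside 10.4% higher and 9.0% lower of 7133 genes measured. In Hspa1-zero cells 12 of 20 were higher and 1 lower, beside 4.03% higher and 3.86% lower of 6970 genes. The median log2 ratio over the list was 0.52 in Hspa1-high and 1.56 in Hspa1-zero cells. Of 19 list genes at 50 CPM or more, 14 had the lower ratio in Hspa1-high cells (73.7%), beside 40.7% of 3471 genes past the same minimum, and 9 were lower by 1.5-fold or more (47.4%), beside 4.12%. The list holds genes known to answer STAT3, so this describes it and tests nothing. Socs3, the feedback inhibitor of STAT3, differed less between the classes, with 666 and 286 CPM (1.22), against 811 and 255 CPM (1.67), and Stat3 itself stood at 0.52 and 0.50. Over all genes the median log2 ratio was 0.01 in Hspa1-high and -0.11 in Hspa1-zero cells, and centring on it gave 351 higher and 155 lower genes in Hspa1-zero cells in place of 281 and 269. Of the genes past 1.5-fold in Hspa1-high cells 53.7% were higher after IL-23, and this balance turned below even under 7 other settings, at 41.4% with members chosen by their Hspa1 share of UMIs, 42.1% without the other-lineage cells, 47.5% with classes weighted over bins of UMIs or equal weight per cell, 47.7% at a threshold of 3 UMIs, 47.9% without cells over 3 times the median UMIs and 48.3% without cells holding a T cell receptor constant UMI or 3 UMIs of other lineages.

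**Figure D4:**
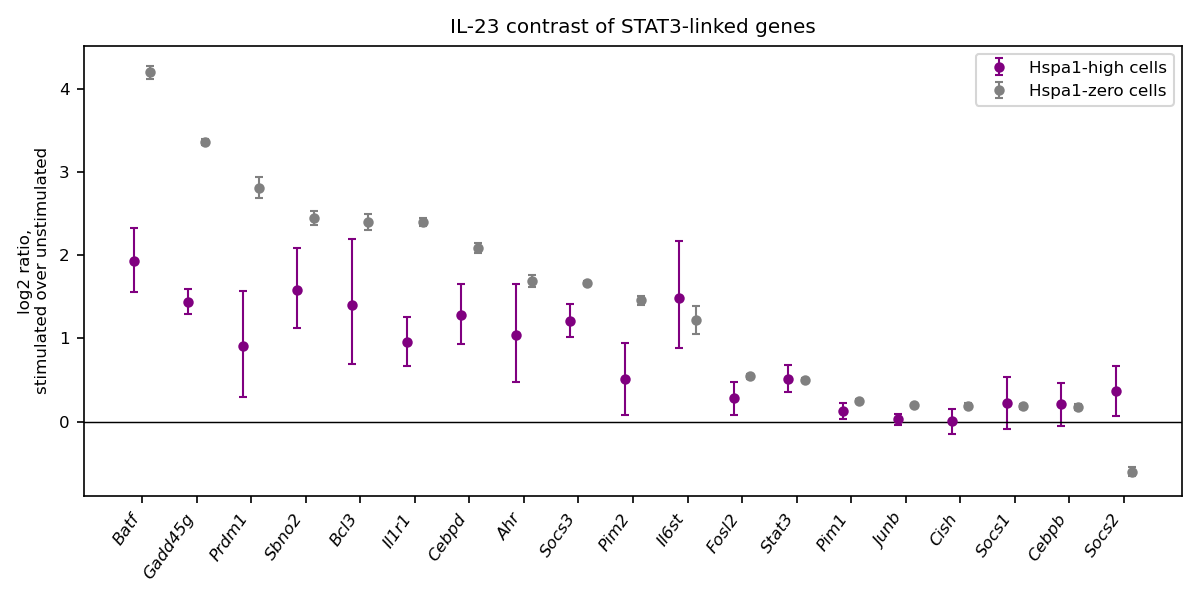
Log2 ratio of CPM, stimulated over unstimulated (vertical axis), of 19 STAT3-linked genes (horizontal axis), in Hspa1-high and in Hspa1-zero cells, with exact Poisson-based intervals. Batf stands at 1.93 in Hspa1-high and 4.20 in Hspa1-zero cells and Stat3 at 0.52 and 0.50; 14 of the 19 genes have the lower ratio in Hspa1-high cells, 9 of them by 1.5-fold or more.

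The order of the Batf values was the same in the Ccr6-only and Ncr1-only strata, and that of Il22 was not. In the stimulated library Batf had 308 CPM in Hspa1-high and 486 CPM in Hspa1-zero Ccr6-only cells, and 267 and 616 CPM in Ncr1-only cells. In the unstimulated library it had 72.7 and 43.0 CPM in Ccr6-only cells, and 93.7 and 22.8 CPM in Ncr1-only cells. Il22 stood higher in Hspa1-high cells of the stimulated Ccr6-only stratum, at 28542 CPM (27900 to 29196) against 25646 CPM (25546 to 25746), and lower in the stimulated Ncr1-only stratum, at 19982 and 30563 CPM. In the unstimulated library it stood higher in both, at 14596 and 7262 CPM in Ccr6-only and 6688 and 4709.5 CPM in Ncr1-only cells. Cells with neither or both had Il22 at 23061 and 26384 CPM in the stimulated and 9538 and 5608 CPM in the unstimulated library. Their Batf stood at 284 and 529 CPM, and 73.0 and 26.8 CPM. By cell, the median Il22 level was 172 UMIs per 10000 in stimulated and 57.1 in unstimulated Hspa1-high cells, against 206 and 30.8 in Hspa1-zero cells. Of 34 heat shock genes 1 was higher (Tcp1, a chaperonin subunit) and 3 were lower in stimulated than in unstimulated Hspa1-high cells, beside 10.4% and 9.0% of all genes, with Hsph1 at -0.57 and Dnajb1 at -0.10. A share of lower genes near that of all genes says nothing about the list.

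**Figure D5:**
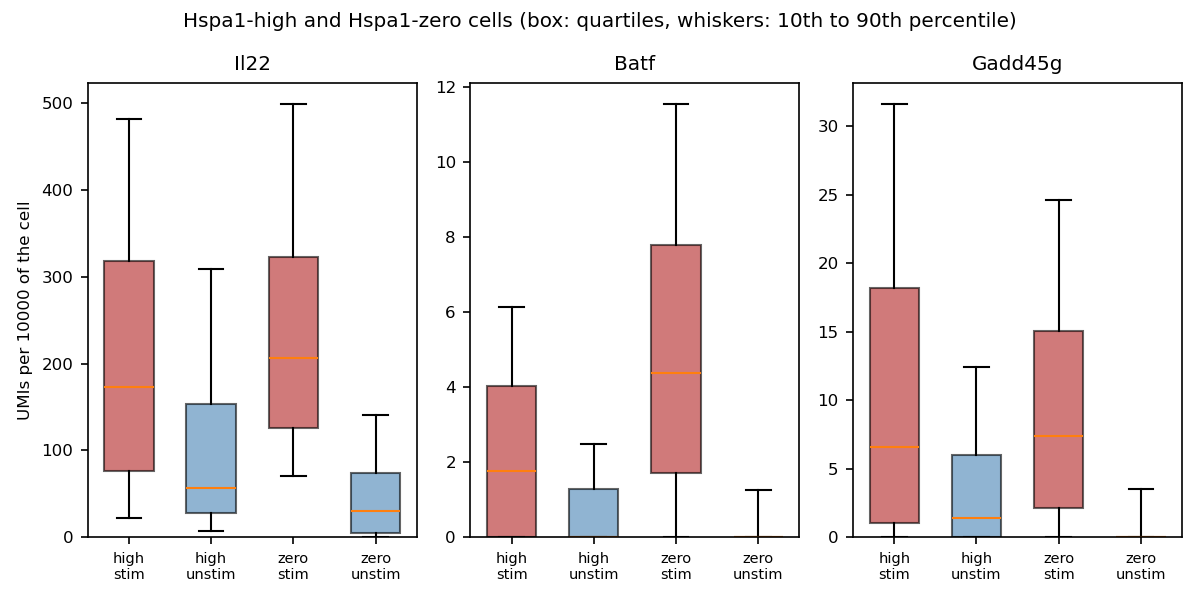
UMIs per 10000 of each cell (vertical axes) for Il22, Batf and Gadd45g in Hspa1-high (high) and Hspa1-zero (zero) cells of the stimulated (stim) and unstimulated (unstim) library, with boxes at the quartiles and median and whiskers from the 10th to the 90th percentile of cells. The median of Il22 is 172 in stimulated and 57.1 in unstimulated Hspa1-high cells and 206 and 30.8 in Hspa1-zero cells, a spread of cells of 1 library each and not of samples.

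Among single genes, the 10 highest and 10 lowest ratios in Hspa1-high cells were led by genes of the other-lineage cells, such as the endothelial gene Cldn5 and the immunoglobulin genes Igkc and Jchain. Without those cells the highest was Ctla4, an inhibitory receptor, with 132 CPM in stimulated and 26.1 CPM in unstimulated Hspa1-high cells (2.32, or 2.96 without them), against 179 and 15.1 CPM in Hspa1-zero cells (3.57). One cell gave 33.3% of the Ctla4 UMIs of Hspa1-high cells in each library. The lowest genes without those cells included Areg, a tissue repair growth factor, with 24.8 and 69.7 CPM (-1.47), against 30.1 and 30.0 CPM (0.00). Ccr2, a chemokine receptor, had 21.1 and 53.2 CPM (-1.32), against 27.8 and 16.6 CPM (0.74). Batf, Gbp2, Ccr2, Il17a, Prdm1 and Rap1gds1 had the lowest ratios relative to those of Hspa1-zero cells without the other-lineage cells, and without those cells the sign of Gbp2 in Hspa1-high cells turned from 0.25 to -0.84. Among them stood Prdm1, a transcriptional repressor, at 0.91 in Hspa1-high and 2.82 in Hspa1-zero cells.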

How the data were processed

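Single-cell RNA libraries of sorted IL-23 receptor reporter cells were deposited by the authors as matrices of raw counts (UMIs per gene and cell), with no normalization. The submitters' processing notes name Cell Ranger 3.1.0 and mm10, and the file headers name cellranger 6.0.0. Which version made the matrices was not settled. The tables have 32285 rows and 32245 gene symbols, and rows of 1 symbol were summed.

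Barcodes were kept from 500 detected genes upward, with mitochondrial genes giving no more than 10% of UMIs. No doublet caller was run, and cells over 3 times the library median of UMIs were left out in an alternative. For each class of each library the UMIs were added up and expressed as CPM, with Hspa1a and Hspa1b left out of the totals. Log2 ratios had 0.5 UMI added to each sum. Without replicate libraries no p-value was computed. The ratio calculation was run on simulated Poisson sums with planted changes larger than 1.5-fold. Those sums hold no variation between cells, so they do not check the 1.5-fold calls on real cells. Cells were thinned to 2000 UMIs (seed 7) to compare shares of cells. Totals per kept library were 61359895 UMIs (stimulated) and 58148889 UMIs (unstimulated), and Hspa1-high cells held 1092792 and 1038285.

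Named genes followed a rule. For members over Hspa1-zero cells they were the 12 highest and 12 lowest log2 ratios with at least 50 CPM in the higher class of both libraries, ranked by the ratio nearer to 0. For stimulated over unstimulated they were the 10 highest and 10 lowest, and for the difference of these ratios the 6 highest and 6 lowest. Genes of the gene lists were also named within their list. The members, the lists and the comparisons were chosen with earlier results of these data known. The other-lineage rule, the ATF4-linked list and the weighting of each cell equally were added after seeing the data. Promoter windows were read from RefSeq tables. Alternatives changed the UMI threshold, the member rule, the cell filters, the cells left out, the weighting, the totals, the centring and the CPM minimum. Python 3.11.15, numpy 2.4.6, scipy 1.17.1, pandas 2.3.3 and matplotlib 3.10.9 were used. Results for some genes are not reported here.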

Additional observations from a re-analysis of the deposited data

Results flagged for a closer look

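The genes below stood on opposite sides of 1 in a pair of libraries or classes. None of these differences was tested, since each library is 1 sample.

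For 4 plasma cell genes the log2 ratio of Hspa1-high over Hspa1-zero cells was negative in the stimulated and positive in the unstimulated library. Igkc stood at -6.60 stimulated and 4.43 unstimulated. Jchain stood at -5.46 and 2.15, Igha at -4.51 and 2.91 and Iglc1 at -4.20 and 1.43. The unstimulated Hspa1-high class held 1 cell with 11871 Igkc UMIs. Among stimulated Hspa1-zero cells 1 cell held 18621 of the 20318 UMIs of the B and plasma list. Without the other-lineage cells, 0 of the 12 genes of that list, which holds Igkc and Jchain, were measured in the stimulated library.

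Batf stood at -0.98 in the stimulated and 1.29 in the unstimulated library on the same scale, and Il17a at -0.81 and 1.17. Leaving out the other-lineage cells gave -0.72 and 1.27 for Il17a. The stimulated sign of Il17a turned among Ccr6-only cells, with 476 CPM in Hspa1-high and 382 CPM in Hspa1-zero cells, against 105 and 139 CPM among Ncr1-only cells. In the stratum with neither or both, which held 56.5% of stimulated Hspa1-high cells, Il17a had 85.6 and 345 CPM. Ccr2 had a log2 ratio of stimulated over unstimulated cells of -1.32 in Hspa1-high cells and 0.74 in Hspa1-zero cells. Most Ccr2 sums in Hspa1-high cells were small, and 1 cell gave 21.7% of its UMIs in the stimulated and 25.5% in the unstimulated library.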

How the results depend on the processing

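No paired analysis was possible because each condition is 1 library. The share of Hspa1-high cells was 2.18% (stimulated) and 2.31% (unstimulated) at a threshold of 3 UMIs, 1.15% and 1.20% at 10 UMIs, and 1.46% and 1.09% without cells holding a T cell receptor constant UMI or 3 UMIs of other lineages. That last choice also took the genes past 1.5-fold between stimulated and unstimulated Hspa1-high cells to 606, against 1386. At 50 CPM or more the genes past 1.5-fold numbered 847 and 927 for Hspa1-high over Hspa1-zero cells (stimulated and unstimulated), 266 for stimulated over unstimulated Hspa1-high cells and 243 for Hspa1-zero cells, against 2583, 2676, 1386 and 550 as reported. With no CPM minimum they were 5435 and 5521 and, in Hspa1-zero cells, 2125. Of 3337 single-gene ratios recomputed, 3147 moved by less than 1.5-fold, 181 by more, and 9 of those past 1.5-fold as reported changed sign. That count overstates stability. Changing the CPM minimum (214 and 248 of these ratios) cannot move a ratio, and changing the member rule cannot move ratios within Hspa1-zero cells. Genes that no longer passed the minimum were not counted, which left 171 ratios without cells holding a T cell receptor constant UMI or 3 UMIs of other lineages. With members chosen by their Hspa1 share of UMIs, the stimulated over unstimulated log2 ratio in Hspa1-high cells became -1.02 for Bcr, -0.67 for Tm4sf1, -0.064 for Rnd1, -2.72 for Iigp1 and -0.47 for Cebpd. Without cells over 3 times the median UMIs, the ratio in Hspa1-zero cells became 3.05 for Jchain, 2.25 for Igha and 5.99 for Iglc1, and with each cell weighted equally Iglc1 stood at 0.49. The cause was not tested in any of these. Genes under about 50 CPM in Hspa1-high cells rest on few UMIs, which limits single-gene ratios.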
